A study of Mus musculus with 4 samples.

Results

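Mouse genes whose symbols begin with Gm and a number, or end in Rik, are mostly predicted gene models and transcripts first seen as sequenced cDNA clones of the RIKEN project. 38 of them differed at least 2-fold between control and Ctcf-null embryonic telencephalon in both pairs of libraries. 23 were higher without Ctcf, here called gained, and 15 were lower, here called lost. They were chosen by these measured values: the average normalized read count over the 4 libraries had to be 20 or more, and the ratio of (Ctcf-null + 1) to (control + 1) had to be 2 or more in both pairs, or 0.5 or less in both pairs. Of 48795 rows in the table, 23658 carried a Gm or Rik symbol and 3560 of those reached the average, so that the gained transcripts were 0.646% and the lost transcripts 0.421% of the candidates. The same rule took 0.634% of the 14354 other rows with that average as gained and 1.05% as lost. Because the rule read this contrast, the values of the 38 are a description, with no test.

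RNA was sequenced from telencephalon, the part of the embryonic brain that forms the cortex and the basal ganglia, dissected at embryonic day 14 from C57BL/6 mice. Control tissue carried floxed Ctcf alleles without a recombinase (genotype "Ctcf floxed"), and Ctcf-null tissue carried the floxed alleles with NestinCre, so that the floxed alleles are common to both groups. NestinCre acts in neural progenitors and passes its deletion to their descendants, and the other cells of the tissue keep Ctcf. Each group had 2 libraries, numbered as 2 pairs. The labels do not say whether the samples came from separate embryos or pools, so p-values measure no more than the spread of these 4 samples, part of which may be technical.

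Long non-coding RNAs are transcripts with no long open reading frame, many are low in abundance and restricted to a tissue, and a share of them start beside a coding gene and run the other way from it. Processed pseudogenes are copies of messenger RNAs that were inserted back into the genome. CTCF, a protein with a row of zinc fingers, recognises a long DNA motif, stops cohesin as it extrudes chromatin loops and separates neighbouring regulatory domains. It also often sits at or near promoters.

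The 4 libraries held 25519331 to 43812558 reads in genes, so that 1 read was worth 0.707 to 1.25 normalized counts. Ctcf itself read 437 and 1133 in the controls and 38.89 and 61.96 in the Ctcf-null libraries, a log2 fold change of -3.81 (SE 0.16, limma adjusted p = 3.3e-12). Over 22158 genes tested, 813 (3.67%) rose and 2228 (10.1%) fell, 13.7% in all and 2.19% by 2-fold or more, at an adjusted p under 0.05 in limma with the pair as a block. With TMM scaling the split was 957 against 1349, and the median log2 fold change of all genes moved from -0.07 to -0.01. Without the block, no gene passed, and 170 had an unadjusted p under 0.05. Of the telencephalon markers, 10 of 16 fell (their summed count was 49818 and 62367 in the controls, 38281 and 47108 in the Ctcf-null libraries) and none was at 0. Choroid plexus markers rose in 3 of 11 (74479 and 26048 in the controls, 97379 and 37244 in the Ctcf-null libraries), microglia markers in 1 of 12, red blood cell markers in 0 of 9 and meningeal markers in 0 of 9, while endothelial markers fell in 1 of 9. The sums are mostly single genes. Ttr gave 72063.5 and 23920 of the choroid plexus sums in the controls and 94451.8 and 34807.7 in the Ctcf-null libraries. Neurod6 was the largest part of the telencephalon sums, at 35714.7 and 29513.5 in the controls and 28697.2 and 25180.9 in the Ctcf-null libraries. The part of these cell types in the values below was not tested, and in bulk tissue fewer cells of a type cannot be told apart from less RNA per cell.

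The gained transcripts were led by 5 that were almost absent or low in control telencephalon and clearly counted in both Ctcf-null libraries. C130021I20Rik, a transcript annotated as antisense (ENSMUSG00000052951.5, chr2:33641193-33646354, plus strand, GRCm38), read 0.89 and 1.25 normalized counts in the controls, libraries 1 and 2 in that order here and throughout, and 54.45 and 168 with Ctcf deleted. In whole reads these were 1 and 1 against 77 and 138. The ratio of normalized counts was 61.2 in pair 1 (95% exact counting interval 10.7 to 2449) and 134 in pair 2 (23.7 to 5332), and intervals of this kind cover counting error only. 1700011D18Rik, a long intergenic non-coding RNA of 1 exon and 277 bases (chr7:78847254-78847530, plus strand), read 0 and 1.25 in the controls and 41.01 and 78.97 in the Ctcf-null libraries. With 0 reads against 58, pair 1 gave a ratio of at least 15.4-fold higher, taking 3 reads per library as the floor, and pair 2, with 1 read against 65, gave 63.1 (10.9 to 2532). Both transcripts thus went from at most 1 read per control library to 58 or more reads per Ctcf-null library, and neither set of groups overlapped.

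Gm26706, another long intergenic non-coding RNA (chr1:133610411-133614422, plus strand), read 0.89 and 2.5 in the controls and 35.36 and 137 in the Ctcf-null libraries. Its ratio was 39.8 in pair 1 (6.81 to 1601) and 54.9 in pair 2 (14.8 to 459). Gm37933, of the same class (chr3:86142757-86145545, plus strand), read 5.34 and 3.75 in the controls and 98.29 and 176 in the Ctcf-null libraries, and with 3 control reads its ratio in pair 2 was 47.0 (15.8 to 230.3). It and Gm26706 were low in both controls, and with C130021I20Rik and 1700011D18Rik they had the 4 highest mean ratios of the 38. D830044I16Rik, named Cdiptos in GENCODE M21 and annotated there as protein-coding (chr7:126971722-126976098, minus strand), read 12.45 and 16.26 in the controls and 243 and 374 in the Ctcf-null libraries. The log2 ratios of these 5 were 4.87 and 6.23 for C130021I20Rik, 5.39 and 5.15 for 1700011D18Rik, 4.27 and 5.30 for Gm26706, 3.97 and 5.22 for Gm37933, and 4.18 and 4.44 for D830044I16Rik, in pairs 1 and 2, with 1 added to each normalized count.

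The other gained transcripts had lower mean ratios and were counted in both controls, some at no higher a level than D830044I16Rik. Gm10644, annotated as protein-coding (chr8:83932329-83955205, minus strand), read 11.56 and 15.01 in the controls and 60.10 and 108 in the Ctcf-null libraries, log2 ratios of 2.28 and 2.77. 1700028E10Rik, a processed transcript with 11 exon blocks (chr5:151368675-151432118, plus strand), read 78.27 and 48.78 in the controls and 387 and 281 in the Ctcf-null libraries, log2 ratios of 2.29 and 2.5. Both were 4-fold or more higher in each pair, as were 8 of the 23. Gm16027, a processed pseudogene inside Entpd1 (chr19:40615886-40616643, plus strand), read 12.45 and 11.26 in the controls and 55.86 and 49.81 in the Ctcf-null libraries. Entpd1, which codes for an ectoenzyme that removes phosphates from extracellular ATP and ADP, read 334 and 240.2 in the controls and 355 and 334 in the Ctcf-null libraries, and its log2 fold change of 0.28 (SE 0.12) did not pass the test (limma adjusted p = 0.15). The antisense transcript B130046B21Rik (chr15:98807024-98816077, plus strand) read 11.56 and 7.50 in the controls and 36.77 and 31.59 in the Ctcf-null libraries. F630040K05Rik, a long intergenic non-coding RNA on chromosome 17 with 8 exon blocks, read 16.90 and 21.26 in the controls and 59.40 and 74.11 in the Ctcf-null libraries. Its log2 ratio was 1.75 in each pair, and neither transcript's groups overlapped.

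Some gained transcripts were well counted in control tissue. 9330104G04Rik, a long intergenic non-coding RNA on chromosome 7, had the highest average count of the gained set and read 222 and 321 in the controls and 540.2 and 745 in the Ctcf-null libraries, log2 ratios of 1.28 and 1.21. Gm44935, named A930037H05Rik in GENCODE M21 (chr11:119448788-119491298, minus strand), read 150.3 and 70.04 in the controls and 426 and 255 in the Ctcf-null libraries, log2 ratios of 1.5 and 1.85. These groups lay apart in both cases. Gm11627, annotated as protein-coding on chromosome 11, read 53.37 and 368 in the controls and 146 and 799 in the Ctcf-null libraries. It was the only one of the 23 whose groups overlapped, because control 2 lay above Ctcf-null 1, although its log2 ratios were 1.44 and 1.12. The 5 gained transcripts not given elsewhere by value (4930465K10Rik, Gm15535, Gm29478, 9430041J12Rik and 4930481A15Rik) had mean log2 ratios of 1.11 to 1.63, and none had overlapping groups. Over all 23, the mean of the pairs' log2 ratios ran from 1.11 to 5.55 with a median of 1.75, and the median average count was 60.0 (21.9 to 457), close to the median of 62.9 in the 3522 candidates outside the rule.

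**Figure D1:**
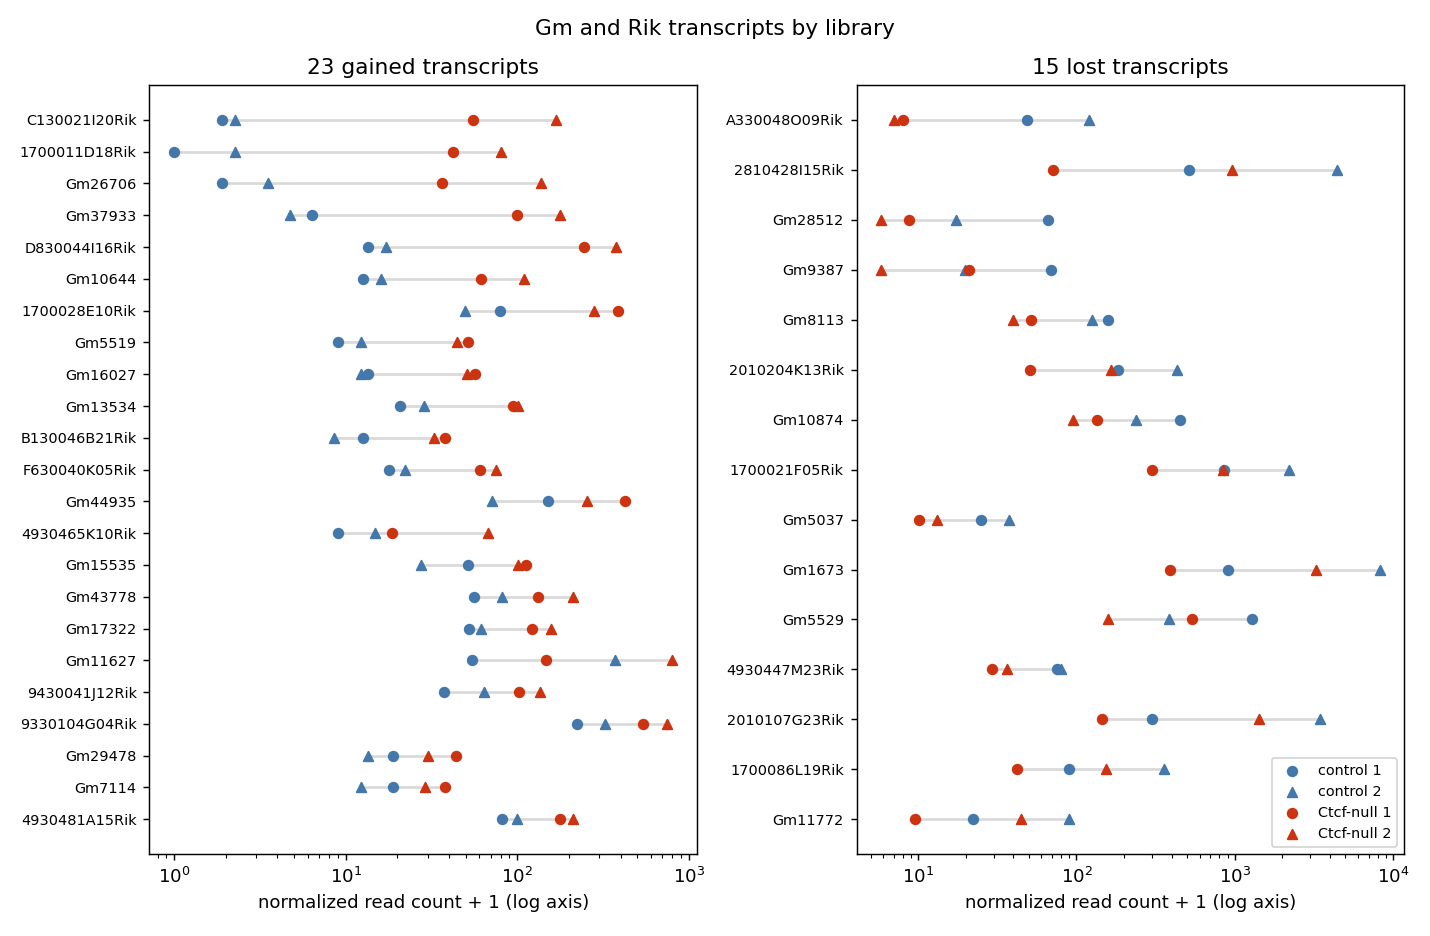
Normalized read count plus 1 (log axis) of the 23 gained (left) and 15 lost (right) Gm and Rik transcripts, 1 point per library, blue for controls and red for Ctcf-null. Gained transcripts at the top sit near the left edge in both controls, and several lost transcripts, such as Gm1673 and 2810428I15Rik, spread as widely between the libraries of a group as between groups.

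The lost transcripts were a different mixture: 4 of the 15 had an average of 1045 or more, above the highest of the gained set, and 5 were protein-coding. A330048O09Rik, a long intergenic non-coding RNA (chr13:48272413-48273884, minus strand), had the lowest mean of the pairs' ratios and read 48.03 and 119 in the controls and 7.07 and 6.07 in the Ctcf-null libraries, log2 ratios of -2.60 and -4.08. 2810428I15Rik, now named Rex1bd and coding for a protein (chr8:70504292-70506752, minus strand), read 511 and 4436 in the controls and 70.00 and 962 in the Ctcf-null libraries. It was 7.2-fold lower in pair 1 and 4.61-fold lower in pair 2, yet its groups overlapped, since Ctcf-null 2 lay above control 1. Gm28512, of the intronic class, read 64.93 and 16.26 in the controls and 7.78 and 4.86 in the Ctcf-null libraries, where it stood on 11 and 4 reads. It lies within a coding gene on the same strand, so that reads of that gene's unspliced RNA cannot be told apart from its own. Only A330048O09Rik and 2810428I15Rik were 4-fold or more lower in both pairs.

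Of the other protein-coding members of the lost set, Gm1673 on chromosome 5 had the highest average of all 38, 3186, and read 907 and 8210.2 in the controls and 387 and 3239 in the Ctcf-null libraries. 2010107G23Rik, now Fam241b, on chromosome 10 read 299 and 3473 in the controls and 144 and 1413 in the Ctcf-null libraries. Both were more than 2-fold lower within each pair and overlapped between groups, because the libraries of pair 2 read many times those of pair 1. 1700021F05Rik, called Mtres1 in RefSeq, read 849 and 2184 in the controls and 299.8 and 846 in the Ctcf-null libraries, log2 ratios of -1.5 and -1.37. Gm8113 on chromosome 14 read 157 and 125 in the controls and 50.91 and 38.88 in the Ctcf-null libraries, log2 ratios of -1.60 and -1.66. The groups of 1700021F05Rik and Gm8113 did not overlap, narrowly so for 1700021F05Rik, whose control 1 and Ctcf-null 2 lay side by side.

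Among the non-coding lost transcripts, 2010204K13Rik on the X chromosome (chrX:7411817-7445143, minus strand) read 181 and 429 in the controls and 49.50 and 165 in the Ctcf-null libraries. Gm10874, a long intergenic non-coding RNA (chr5:138363719-138388287, plus strand), read 451 and 235 in the controls and 133 and 93.55 in the Ctcf-null libraries. 4930447M23Rik, of the same class (chr2:19344317-19351050, plus strand), read 73.82 and 78.80 in the controls and 28.28 and 35.23 in the Ctcf-null libraries. None of these 3 had overlapping groups, and their log2 ratios lay between -1.85 and -1.14. 1700086L19Rik, a pseudogene of the unitary kind on chromosome 12, read 88.05 and 358 in the controls and 41.01 and 153 in the Ctcf-null libraries, and the antisense Gm11772 in Bahcc1 read 21.35 and 88.81 in the controls and 8.49 and 43.74 in the Ctcf-null libraries. The groups of both overlapped. Nearest to the limit, Gm11772 (0.498 of control in its nearer pair), Gm7114 (2.01) and 2010107G23Rik (0.482) were just inside, and Gm37795 (1.97), A730056A06Rik (0.509) and Gm38025 (0.512) just outside.

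Differences between the pairs weighed more on the lost set than on the gained one. The groups did not overlap for 22 of the 23 gained and 8 of the 15 lost transcripts, where 3.96% of the 3560 candidates did not overlap upward and 7.78% downward (5.77% and 8.31% of the 14354 other rows), and nothing is read from that comparison because the rule used the same values. The median size of the log2 ratio of control 2 to control 1 was 0.53 in the gained set, 1.74 in the lost set and 1.02 in the candidates outside the rule. Within pairs the spread was small: the 2 log2 ratios of a transcript differed by a median of 0.32 in the gained set, 0.21 in the lost set and 0.27 in the rest. The 38 lay on 12 chromosomes in each direction and were not neighbours of each other, the closest being Gm15535 and Gm37933, both gained, 568812 bp apart on chromosome 3, and Gm44935 and Gm11772, one gained and one lost, 743936 bp apart on chromosome 11.

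**Figure D2:**
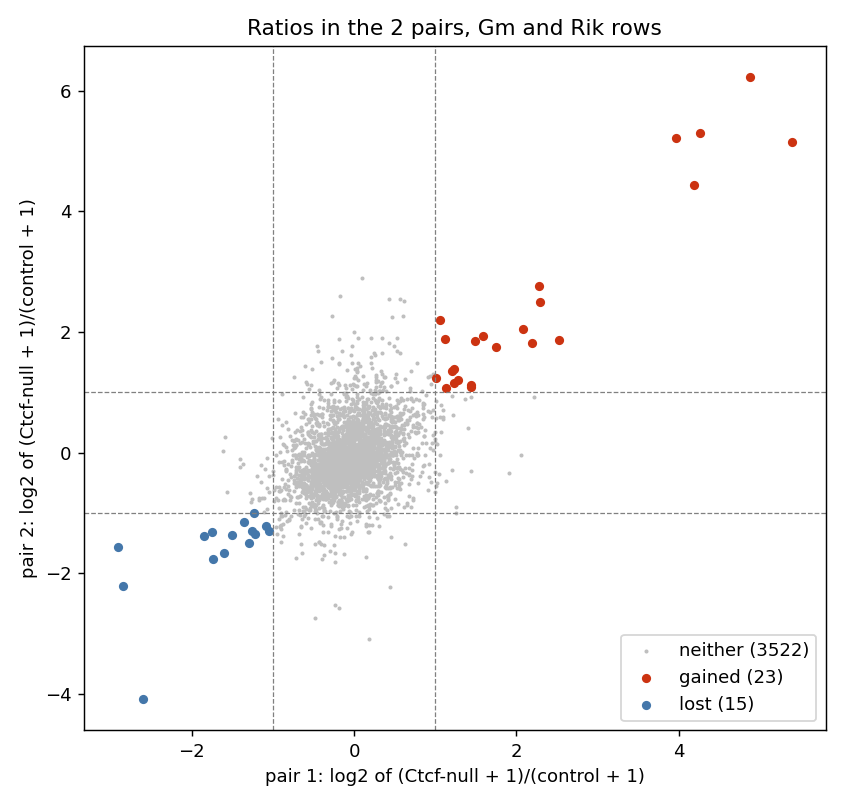
Log2 of (Ctcf-null + 1)/(control + 1) in pair 1 (x axis) against pair 2 (y axis) for the 3560 Gm and Rik rows with an average of 20 or more, with the 23 gained in red, the 15 lost in blue and the other rows in grey. The 38 lie in the upper right and lower left corners because the rule puts them there, and the 5 highest gained transcripts, at 3.97 or more in both pairs, stand apart from the rest.

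By annotation, long non-coding RNA classes made up 14 of the 23 gained transcripts (60.9%: 7 intergenic, 4 antisense, 2 processed transcripts and 1 intronic). They were 6 of the 15 lost transcripts (40%) and 24.9% of the candidates outside the rule. Pseudogenes were 5 of the gained (21.7%) and 4 of the lost (26.7%), against 42.3% of the rest. Protein-coding genes were 3 of the gained (13%: D830044I16Rik, Gm10644 and Gm11627), 5 of the lost (33.3%) and 15.1% of the rest. Gm43778, at 55.15 and 80.05 in the controls and 131 and 210.2 in the Ctcf-null libraries, was the 1 member of the class TEC, gene models still waiting for an experimental test.

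Many gained transcripts are annotated as starting beside a coding gene and running away from it. Starts and strands here are those of GENCODE, and the start and direction of the reads were not measured. After the values were seen, starts on opposite strands within 1 kb of each other were counted: 11 of the 23 gained transcripts (47.8%) had such a coding partner, 0 of the 15 lost transcripts, and 445 of the 3485 other candidates with a GENCODE position (12.8%). Within the long non-coding classes alone the counts were 8 of 14 gained (57.1%), 0 of 6 lost and 319 of 877 in the rest (36.4%). The 11 partners were Lmx1b, Det1, Snrpe, Rps3a1, Cdipt, Asf1b, 1600014C23Rik, Endov, 8030462N17Rik, Gatb and Dact3, and the 5 gained transcripts with the highest ratios all had one. At Det1, Cdipt and 8030462N17Rik the first bases of the 2 transcripts overlapped. Of 10 partners tested, 5 passed the test, as did 88 of 433 partners of the rest and 15.8% of all 16024 protein-coding genes tested. Lmx1b and Asf1b rose, and Det1, Rps3a1 and Cdipt fell.

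**Figure D3:**
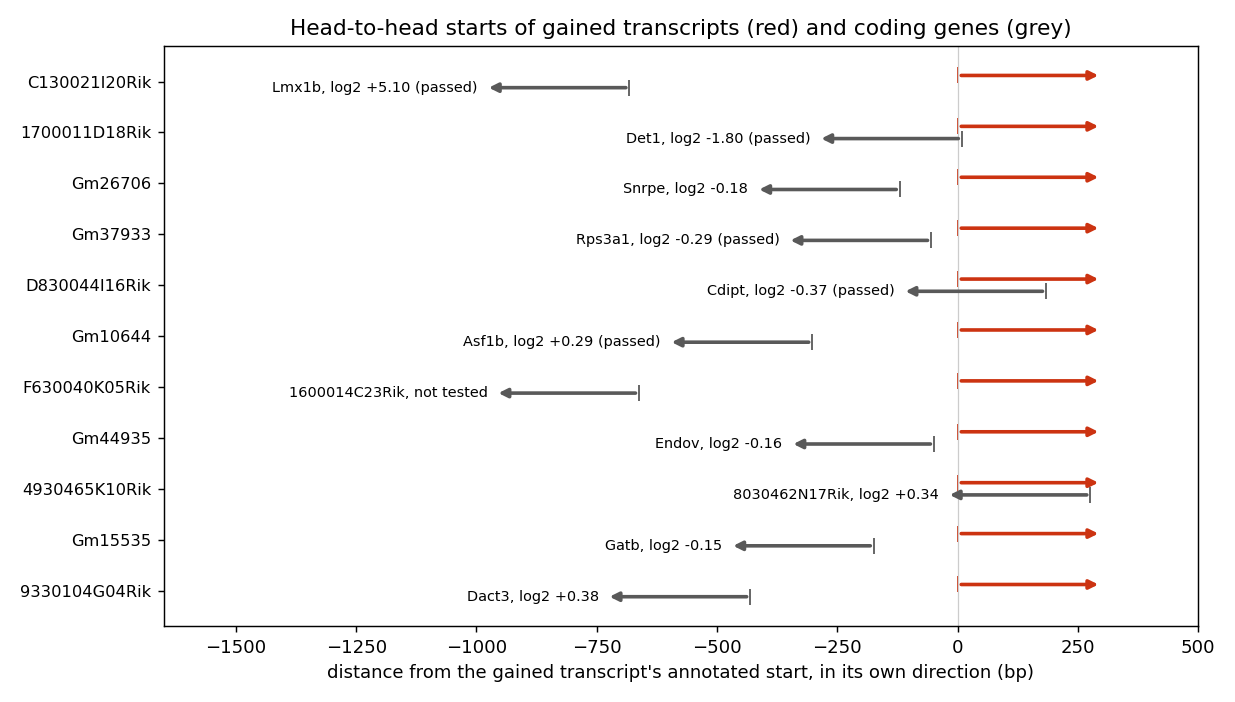
Annotated starts of the 11 gained transcripts with a coding gene starting within 1 kb on the opposite strand, drawn to scale as distance in bp along each gained transcript's own direction (red arrow from 0), with the coding gene in grey and its log2 fold change, "passed" marking a limma adjusted p under 0.05. The gaps between starts run from 9 bp (Det1) to 682 bp (Lmx1b), and the partners' fold changes have both signs.

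The sequence around 3 of these shared starts is shown because the gained transcript's start falls within the partner's promoter window, from 250 bases before the partner's start to 50 after it (RefSeq, GRCm38.p6, written on the partner's strand, so that the gained transcript runs leftward). The Gm26706 start is at base 120 of the Snrpe window (chr1:133610231-133610530, minus strand), the Gm37933 start at base 162 of the Rps3a1 window (chr3:86142619-86142918, minus strand) and the 1700011D18Rik start at base 208 of the Det1 window (chr7:78847162-78847461, minus strand). Capitals mark matches, on either strand, to GGNGGCAG and GGNGGCGC (forms of the CTCF core, the second added after the sequences were seen), to the TATA box letters TATAAA, to CCAAT, a common promoter element, and to the GC box letters GGGCGG. Matches of different patterns may overlap.
Snrpe: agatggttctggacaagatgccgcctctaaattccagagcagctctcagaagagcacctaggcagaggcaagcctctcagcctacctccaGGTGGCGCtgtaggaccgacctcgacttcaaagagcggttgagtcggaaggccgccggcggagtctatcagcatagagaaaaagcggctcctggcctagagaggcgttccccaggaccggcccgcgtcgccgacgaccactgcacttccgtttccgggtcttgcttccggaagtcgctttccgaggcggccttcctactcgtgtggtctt
Rps3a1: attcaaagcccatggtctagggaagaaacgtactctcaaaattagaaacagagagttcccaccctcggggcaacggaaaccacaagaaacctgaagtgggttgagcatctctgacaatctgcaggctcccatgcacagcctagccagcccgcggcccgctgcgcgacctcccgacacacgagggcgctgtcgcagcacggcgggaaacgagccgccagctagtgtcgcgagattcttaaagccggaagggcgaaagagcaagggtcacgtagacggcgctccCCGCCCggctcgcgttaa
Det1: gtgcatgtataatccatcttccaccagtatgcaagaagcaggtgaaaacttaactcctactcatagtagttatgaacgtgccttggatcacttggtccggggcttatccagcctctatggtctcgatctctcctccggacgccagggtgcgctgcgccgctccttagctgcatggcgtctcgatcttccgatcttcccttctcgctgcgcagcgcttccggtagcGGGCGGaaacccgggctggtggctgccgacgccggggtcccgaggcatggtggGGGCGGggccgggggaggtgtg

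The Snrpe window holds 1 match to GGNGGCGC, the Rps3a1 window 1 GC box and the Det1 window 2. Snrpe, a core protein of the spliceosome's small ribonucleoproteins, read 9295 and 11416 in the controls and 8143 and 10155 in the Ctcf-null libraries, and its log2 fold change of -0.18 (SE 0.06) did not pass the test (limma adjusted p = 0.057). Rps3a1, a protein of the small ribosomal subunit, read 44911 and 46302 in the controls and 36698 and 37917 in the Ctcf-null libraries, and fell by 0.29 on the log2 scale (SE 0.06, adjusted p = 0.0022). Beside these small differences of 2 genes that every cell uses, the transcripts starting 120 bp (Gm26706) and 55 bp (Gm37933) away had log2 ratios of 3.97 or more in both pairs. With DESeq2 the adjusted p of Rps3a1 was 0.11, and that of Cdipt and of Asf1b 0.16 each, so that these 3 calls were lost.

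RefSeq promoter windows were searched by the deposited and GENCODE M21 symbols, not by other names such as Mtres1 for 1700021F05Rik. Of the 38 members, 21 had such a window of their own, 12 gained and 9 lost. The windows of the 3 gained and 3 lost transcripts with the largest ratios among these are shown to compare the 2 directions: C130021I20Rik (chr2:33640943-33641242, plus strand), D830044I16Rik (chr7:126975797-126976096, minus), Gm10644 (chr8:83955284-83955583, minus), then the lost A330048O09Rik (chr13:48273835-48274134, minus), 2810428I15Rik (chr8:70506377-70506676, minus) and 2010204K13Rik (chrX:7422939-7423238, minus). Capitals mark the same motifs.
C130021I20Rik: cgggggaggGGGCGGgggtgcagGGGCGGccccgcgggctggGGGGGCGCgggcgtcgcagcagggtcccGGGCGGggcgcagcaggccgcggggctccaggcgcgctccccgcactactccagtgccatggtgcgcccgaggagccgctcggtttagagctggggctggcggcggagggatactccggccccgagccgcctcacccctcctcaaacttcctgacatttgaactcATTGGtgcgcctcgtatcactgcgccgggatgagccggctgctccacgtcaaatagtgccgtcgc
D830044I16Rik: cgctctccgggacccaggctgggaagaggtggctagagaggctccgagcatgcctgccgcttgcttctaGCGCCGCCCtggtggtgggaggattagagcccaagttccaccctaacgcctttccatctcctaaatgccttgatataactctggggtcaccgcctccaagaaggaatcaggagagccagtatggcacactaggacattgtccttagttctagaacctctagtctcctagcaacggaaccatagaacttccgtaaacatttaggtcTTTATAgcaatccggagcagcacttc
Gm10644: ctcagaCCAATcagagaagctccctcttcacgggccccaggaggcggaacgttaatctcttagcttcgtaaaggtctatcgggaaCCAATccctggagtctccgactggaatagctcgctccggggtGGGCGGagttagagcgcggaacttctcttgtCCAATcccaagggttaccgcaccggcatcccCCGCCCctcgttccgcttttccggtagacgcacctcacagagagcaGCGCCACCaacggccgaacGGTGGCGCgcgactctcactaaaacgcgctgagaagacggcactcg
A330048O09Rik: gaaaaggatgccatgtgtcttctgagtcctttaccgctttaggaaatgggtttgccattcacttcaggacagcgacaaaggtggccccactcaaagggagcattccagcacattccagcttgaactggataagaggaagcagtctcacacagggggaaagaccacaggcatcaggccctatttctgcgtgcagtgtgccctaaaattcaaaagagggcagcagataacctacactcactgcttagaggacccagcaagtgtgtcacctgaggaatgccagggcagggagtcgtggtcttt
2810428I15Rik: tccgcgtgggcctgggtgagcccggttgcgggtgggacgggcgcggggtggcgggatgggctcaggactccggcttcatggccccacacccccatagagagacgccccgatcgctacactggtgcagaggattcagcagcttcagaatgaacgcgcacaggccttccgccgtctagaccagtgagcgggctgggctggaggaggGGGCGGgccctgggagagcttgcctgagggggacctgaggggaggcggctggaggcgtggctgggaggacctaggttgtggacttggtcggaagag
2010204K13Rik: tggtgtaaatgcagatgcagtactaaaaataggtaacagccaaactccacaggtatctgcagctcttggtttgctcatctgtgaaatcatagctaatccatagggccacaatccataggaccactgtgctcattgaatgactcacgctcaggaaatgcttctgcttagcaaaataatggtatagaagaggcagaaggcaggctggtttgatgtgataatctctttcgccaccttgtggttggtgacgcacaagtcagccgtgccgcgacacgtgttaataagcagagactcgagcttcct

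The C130021I20Rik window holds 3 GC boxes, 1 CCAAT and 1 GGNGGCGC, and that of Gm10644 holds 2 GC boxes, 3 CCAAT and 2 GGNGGCGC. In the D830044I16Rik window a GC box and a GGNGGCGC match overlap, and a TATAAA match lies near its 3′ end. Of the lost windows printed, that of 2810428I15Rik has 1 GC box, and those of A330048O09Rik and 2010204K13Rik have no match to any of the 5 patterns. A second RefSeq window of 2010204K13Rik (chrX:7420998-7421297) holds 1 CCAAT, and its GENCODE start, at chrX:7445143, lies outside both windows. Among the members' printed windows, only those of C130021I20Rik and A330048O09Rik contain the GENCODE start of the transcript. Taking only the first window of each member, here and below, GGGCGG occurred in 7 of 12 gained (58.3%) and 3 of 9 lost (33.3%), against 35.7% of all 32851 windows of the table. A second window of the lost 2010107G23Rik holds 1 GC box, which these counts leave out, as they do the CCAAT in the second window of 2010204K13Rik. GGNGGCAG occurred in 3 of 12 gained (B130046B21Rik, F630040K05Rik and Gm11627), 0 of 9 lost and 12.6% of all windows, and GGNGGCGC in 3 of 12 (the 3 gained windows printed above, in which it was noticed), 0 of 9 and 11.3%. TATAAA was in 2 of 12, 0 of 9 and 13.6%, and CCAAT in 4 of 12, 3 of 9 and 37.4%. The median GC content was 59.2% in the gained windows, 52.7% in the lost windows and 52.7% in all, with a median of 14, 12 and 7 CpG dinucleotides. A match to these letters is a description of the sequence, and its absence says nothing about the factor.

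The nearest protein-coding gene of each transcript, taking an overlapping gene first and otherwise the closest within 100 kb, was examined. 34 of the 38 had one, Gm43778, Gm7114, Gm5037 and Gm9387 having none. 27 of the 34 genes were counted highly enough to be tested. The rule did not read the rows of these 27, apart from 8030462N17Rik and Gm9803, candidates that did not pass it. 12 of the 27 (44.4%) passed the test, 5 higher and 7 lower, where 15.8% of all 16024 protein-coding genes tested did (4.44% higher and 11.3% lower). For the candidates outside the rule it was 374 of 2201 (17.0%). 6 of the 27 (22.2%) were called with a change of 2-fold or more, against 2.35% of all protein-coding genes and 1.77% of the neighbours of the rest. The labels name no strand information, so reads from an overlapping gene on either strand may be counted for its partner: 7 of 12 overlapping neighbours and 5 of 15 that do not overlap (33.3%) passed. Gained transcripts had 9 called neighbours of 17 tested, 5 higher and 4 lower, and lost transcripts 3 of 10, all lower. Without the pair block none of the 27 passed, 4 having an unadjusted p under 0.05, and with DESeq2 7 of the 27 passed.

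Lmx1b, a LIM homeodomain factor of the limb, kidney and midbrain that starts 682 bp from C130021I20Rik, was the neighbour with the largest change. It read 0 and 1.25 in the controls and 37.48 and 68.03 in the Ctcf-null libraries, a log2 fold change of 5.10 (SE 0.50, limma adjusted p = 5.8e-07), a size that depends on the 1 added to each count and was 6.63 in DESeq2. Gene and non-coding transcript were thus both near 0 in each control and both counted in each Ctcf-null library, and their gene bodies do not overlap. Det1, a part of a ubiquitin ligase complex whose start lies 9 bp from that of 1700011D18Rik, went the other way. It read 358 and 420.3 in the controls and 97.58 and 125 in the Ctcf-null libraries, and fell by 1.80 on the log2 scale (SE 0.14, adjusted p = 1.3e-08). At this shared start the coding gene lost and the non-coding transcript gained reads in both pairs.

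Rnf213, which codes for a very large ubiquitin ligase and overlaps Gm44935 on the other strand, read 131 and 47.53 in the controls and 296 and 112 in the Ctcf-null libraries (log2 fold change 1.19, SE 0.17, adjusted p = 4.8e-05). Cyp11a1, the enzyme that begins steroid hormone synthesis and overlaps Gm17322 (chr9:57998041-58007451, plus strand), read 11.56 and 6.25 in the controls and 33.94 and 25.51 in the Ctcf-null libraries (1.67, SE 0.38, adjusted p = 0.0056). Both rose with the transcript that overlaps them, and DESeq2 gave no adjusted p for Cyp11a1. Gm17322 lies on the same strand as Cyp11a1, and 6.73% of its transcript matches Cyp11a1 at 100% identity, so that reads from these bases cannot be told apart. Gm17322 itself read 51.59 and 60.04 in the controls and 120.2 and 156 in the Ctcf-null libraries. Msrb2, a mitochondrial methionine sulfoxide reductase 20389 bp from 4930447M23Rik, read 99.62 and 361 in the controls and 53.74 and 148 in the Ctcf-null libraries (log2 fold change -1.08, SE 0.17, adjusted p = 1.6e-04).

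**Figure D4:**
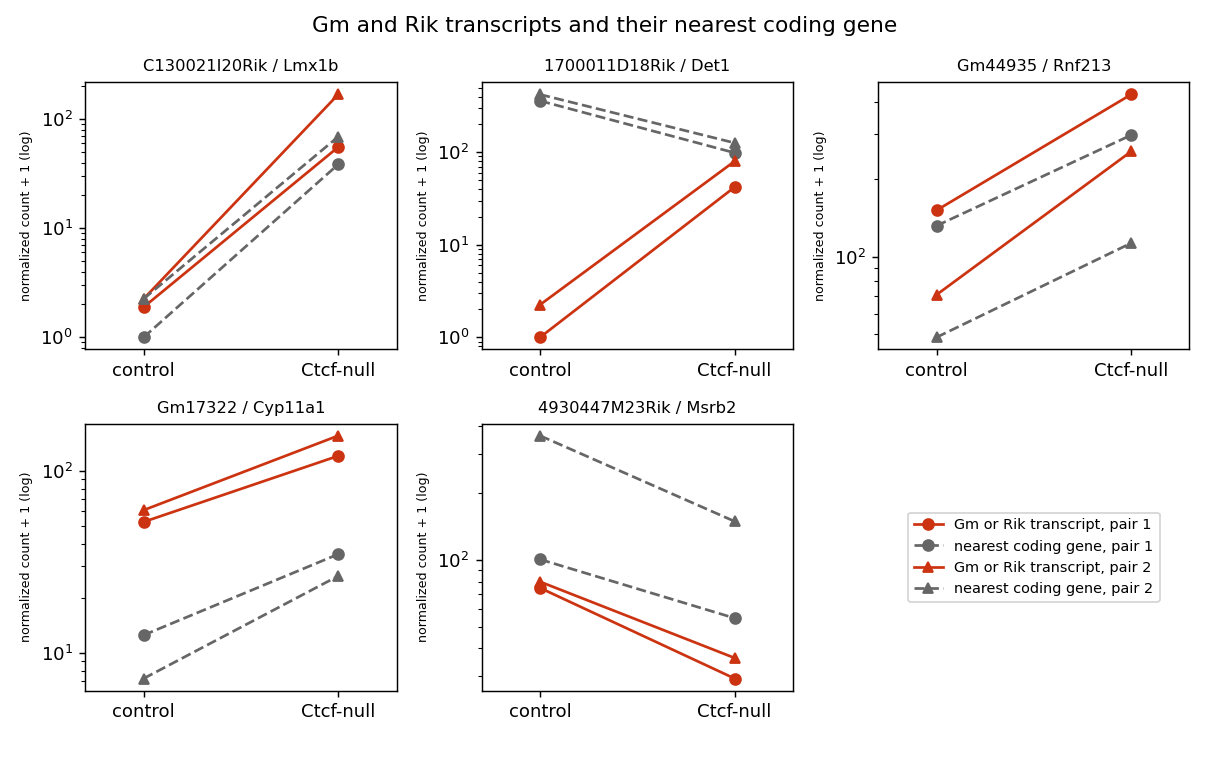
Normalized count plus 1 (log axis) in control and Ctcf-null for 5 Gm or Rik transcripts (red) and the nearest protein-coding gene that passed the test with a change of 2-fold or more (grey, dashed), with a line for each pair. The 2 lines slope the same way in 4 panels, and in that of 1700011D18Rik and Det1 they slope in opposite ways.

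Smaller changes passed the test in 6 further neighbours. Prkag1, a subunit of the AMP-activated kinase that overlaps B130046B21Rik, rose by a log2 of 0.47 (limma adjusted p = 9.3e-04), and Zic4, a zinc finger factor near Gm29478, rose by 0.29 (0.024). Ttyh1, a membrane protein of neural cells overlapping 9430041J12Rik, fell by 0.55 (3.4e-04), Cdipt, the phosphatidylinositol synthase overlapping D830044I16Rik, fell by 0.37 (0.011), and Rps3a1 fell as given above. Id4, an inhibitor of basic helix-loop-helix factors near the lost A330048O09Rik, fell by 0.41 (0.012). The 4 gained transcripts with a called lower neighbour were therefore 1700011D18Rik, Gm37933, D830044I16Rik and 9430041J12Rik, and 3 of these start head to head with it. Over all 135 distinct protein-coding genes tested within 100 kb of any of the 38, 35 (25.9%) were called, 9 higher and 26 lower, and 8 (5.93%) by 2-fold or more, against 15.8% and 2.35% of all protein-coding genes. The share was 29 of 98 (29.6%) around gained transcripts and 6 of 37 (16.2%) around lost transcripts, the latter near that of all protein-coding genes. These also included Atp2b4, 85034 bp from Gm26706, with a log2 fold change of -1.29, and Mus81, 59497 bp from 4930481A15Rik, with -1.84.

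A second relation was to coding genes elsewhere in the genome. After the values were seen, each transcript was compared with all protein-coding transcripts of GENCODE M21, and 7 of the 38 resembled one with at least 95% identity over at least 50% of their length without overlapping it. Such a transcript can take reads of its source gene, and the treatment of reads with several matches was not found in the labels or the table, so these 7 are uncertain as separate transcripts. All 6 source genes passed the test, in the direction of the resembling transcript, and 5 changed 2-fold or more. Among candidates outside the rule, 1228 (34.9%) resembled a coding transcript. Of their 622 tested source genes, 168 (27.0%) passed, 4 of them by 2-fold or more (0.643%). Nothing is read from that comparison, because the rule chose the 7 by their change and their reads may be those of the source gene.

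The 3 gained copies were the processed pseudogenes Gm5519, Gm13534 and Gm7114. Gm5519 read 8 and 11.26 in the controls and 50.91 and 43.74 in the Ctcf-null libraries, and Gm13534 read 19.57 and 27.52 in the controls and 93.34 and 99.62 in the Ctcf-null libraries. Their mean log2 ratios were 2.20 and 2.01, and their groups did not overlap. Gm7114 (17.79 and 11.26 in the controls, 36.77 and 27.94 in the Ctcf-null libraries) matched Setd3, a histidine methyltransferase of actin. Setd3 rose by a log2 of 1.02 (SE 0.08, adjusted p = 2.8e-08) and Gm7114 had a mean log2 ratio of 1.12.

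The 4 lost copies were Gm9387, Gm10874, Gm5037 and Gm5529. Gm9387 (68.49 and 18.76 in the controls, 19.80 and 4.86 in the Ctcf-null libraries) matched Ttc5, a cofactor of the p53 response, which fell by 1.90 (SE 0.08, adjusted p = 4.2e-12). Gm10874 matched Got2, the mitochondrial aspartate aminotransferase, over 69.5% of its length and on the opposite strand, and Got2 fell by 1.58 (SE 0.08, adjusted p = 5.7e-11). Gm5037, a processed pseudogene, read 24.01 and 36.27 in the controls and 9.19 and 12.15 in the Ctcf-null libraries, which did not overlap. Gm5529 (1286 and 385 in the controls, 539.5 and 157 in the Ctcf-null libraries) matched Slc25a5, an exchanger of ADP and ATP in mitochondria, which fell by 0.86 (SE 0.07, adjusted p = 7.3e-08). The mean log2 ratios of the transcripts were -1.75 for Gm9387, -1.54 for Gm10874, -1.40 for Gm5037 and -1.27 for Gm5529. The groups of Gm9387 and Gm5529 overlapped, and those of Gm10874 and Gm5037 did not. No such match was found for the other members, among them Gm16027, which GENCODE annotates as a processed pseudogene.

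**Figure D5:**
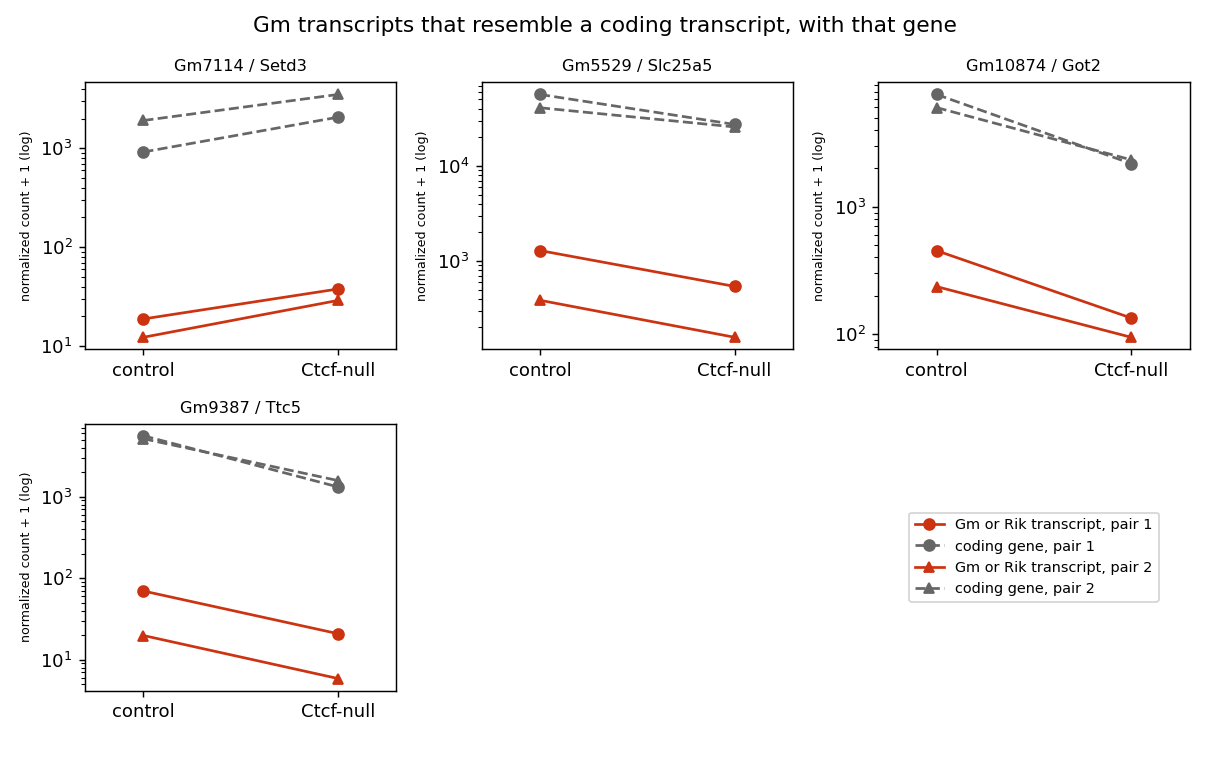
Normalized count plus 1 (log axis) in control and Ctcf-null for 4 Gm transcripts with at least 95% identity to a protein-coding transcript (red) and the gene of that transcript (grey, dashed), with a line for each pair. In every panel the 2 genes slope the same way, and the coding gene lies above the Gm transcript in each library.

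Among long non-coding RNA genes with names of their own, more fell than rose, as over all genes tested. Of 63 such genes listed, 50 were tested, 2 rose and 8 fell. Their median log2 fold change was -0.14 against -0.07 over all genes tested, of which 3.67% rose and 10.1% fell. With TMM scaling 3 of the 50 rose and 6 fell, and in edgeR 4 rose and 6 fell. Snhg11, a host gene of small nucleolar RNAs that is abundant in neurons, read 2956 and 1336 in the controls and 7951 and 2803 in the Ctcf-null libraries, and rose by 1.25 (SE 0.08, limma adjusted p = 1.1e-09), the only listed gene that passed the test with a change of 2-fold or more. Snhg17 fell by 0.83, Firre, an X-linked RNA of nuclear organisation, by 0.67, Ftx, of the X inactivation centre, by 0.59 and Snhg18 by 0.55. Of the nuclear exosome and its adaptors, which degrade unstable non-coding RNA, 3 of 20 fell and none rose (Exosc7 by 0.43, Rbm7 by 0.35 and Exosc8 by 0.22), with a median of -0.16. Of 30 genes of repressive chromatin, 6 fell and none rose, led by Hdac1 (by 0.40), Kdm1a (0.35), Ezh2 (0.29), Trim28 (0.29) and Uhrf1 (0.26), with a median of -0.12. Of the 19 listed calls, 14 held with TMM scaling, the lost ones including Exosc8 and Uhrf1, and 6 held in DESeq2.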

How the data were processed

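RNA of 2 control and 2 Ctcf-null telencephalon samples was sequenced after cDNA synthesis with a Clontech Smart kit, per the labels' protocols, which mention no strand marking. The table holds signal values that are normalized read counts, which the authors deposited for 4 libraries with pair log2 ratios. STAR 2.5.3, DESeq2 and mm10 come from the submitters' processing notes. The gene counter and the version of its annotation were not given in the sources used here. Whole reads were recovered from the deposited normalized counts by dividing by the worth of 1 read, at least 99.97% of nonzero values giving a whole number when compared within a tolerance of 0.005. Members and gene lists were chosen with earlier results of these data known.

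Rows were matched by gene ID to GENCODE M21 (48435 of 48795). The fit was limma 3.58.1 (R 4.3.3) on log2(normalized count + 1), its prior variance allowed to follow expression, after filterByExpr, with the pair as a block, since the series describes 2 pairs. Benjamini-Hochberg adjustment ran over all 22158 genes tested and 0.05 was the threshold. All 38 members passed that filter. Fold changes on this scale understate those of low genes. Same-numbered libraries deviated together from their group means (correlation 0.923). What the pairs share is not stated. The fit was tested on simulated data. Similar transcripts were found with blastn 2.17.0. Alternatives were edgeR 4.0.16 and DESeq2 1.42.0 on the recovered reads, TMM scaling, no block, other pseudocounts, filters, ratio limits, averages and neighbour distances, and each library left out. The start distance and the similarity limits were chosen after seeing the data.

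Named are the 12 transcripts with the largest mean log2 ratio in each direction, the 5 with the highest average, those with a neighbour called at 2-fold or more, the 3 on each side of the limit, and up to 5 called genes per list. A few genes that enter the counts are not reported here by name. Others are named as partners, copies or neighbours. Pair 1 had 41294659 reads in genes in the control and 43812558 in the Ctcf-null library, and pair 2 had 27619441 and 25519331.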

Additional observations from a re-analysis of the deposited data

How the results depend on the processing

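The counts of members moved with the limits that chose them. A ratio of 1.5 gave 76 gained and 97 lost, a ratio of 4 gave 8 and 2, an average of 10 gave 31 and 29, an average of 50 gave 13 and 10, adding 5 to each count gave 20 and 14, and TMM scaling gave 25 and 13. With 1 pair alone, gained ranged from 51 (pair 1) to 132 (pair 2) and lost from 40 to 114. The replicate block carried the tests: without the pair block 0 of 22158 genes, 0 neighbours and 0 listed genes passed in limma, with 170 genes at an unadjusted p under 0.05, against 3041, 12 and 19 with it. With 1 library left out, which needs the fit without the block, 0 to 2 genes passed and 0 neighbours or listed genes did. DESeq2 called 832 genes, 7 neighbours and 6 listed genes, and edgeR 2642 genes. Of 28 single genes named with a test, 26 kept their call in edgeR and with TMM scaling, all 28 with a pseudocount of 5 and with no filter, and 16 in DESeq2. Signs of single log2 fold changes reversed only with a library left out, none of them passing. Cdipt ran from -1.94 to 1.20 (1.06 in another), Firre from -1.41 to 0.0605, Snhg18 from -1.15 to 0.0558, Rbm7 from -0.98 to 0.28 (0.24), Exosc8 from -0.53 to 0.0896 (0.0389), Ezh2 from -0.80 to 0.22 (0.21) and Uhrf1 from -0.62 to 0.0881. Of the 28 values, 15 moved by more than 1.5 times with some library left out, among them Msrb2 (-2.004 without control 1, -0.15 without control 2), Rnf213 (1.91 and 0.47), Setd3 (0.49 to 1.55) and Snhg11 (0.50 without Ctcf-null 1, 2 without Ctcf-null 2), while Lmx1b, Det1, Got2 and Ttc5 did not. These fits have no block, so a left-out value also holds the difference between the pairs. Within pairs 1 and 2, the log2 ratios were -0.23 and -0.51 for Cdipt, -0.88 and -1.28 for Msrb2, and 1.17 and 1.22 for Rnf213. Other causes were not tested. Head-to-head partners numbered 9 within 0.5 kb and 12 within 2 kb, and 6 copies remained at 80% covered, alternatives chosen after seeing the data. Depth limits the 4 transcripts with 3 or fewer reads in a control library, whose ratios span the intervals given.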

Other observations

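Below the average of 20 that the rule required, 12 further Gm and Rik rows differed 4-fold or more in both pairs, 10 higher and 2 lower in the Ctcf-null libraries. They rest on few reads, and are given as values with no test. Among the higher rows, Gm21036, a processed pseudogene on chromosome 7, had 1 and 0 reads in the controls and 11 and 8 in the Ctcf-null libraries, and its neighbour Gm21035 had 0 and 0 against 7 and 5. Gm37217, on chromosome 1, had 2 and 0 reads in the controls and 15 and 7 in the Ctcf-null libraries. Gm14104, antisense within Crls1 (a cardiolipin synthase), had 1 and 1 reads against 16 and 7. Gm43938, an antisense transcript overlapping Tril, had 0 and 0 reads against 5 and 5, and Tril, an accessory of Toll-like receptor signalling, rose by a log2 of 0.77 (SE 0.17, limma adjusted p = 0.0040). Gm45231, antisense to Trappc5 (a subunit of a vesicle tethering complex), had 0 and 1 reads against 5 and 13, and Trappc5 fell by 0.29 (SE 0.08, adjusted p = 0.025). Of the 7 nearest coding genes tested at these 12 rows, Tril and Trappc5 passed, and Crls1 (log2 fold change -0.32, adjusted p = 0.18), Gtf2i (-0.012, 0.94), Nelfa (-0.19, 0.12), Mrrf (-0.21, 0.14) and D630003M21Rik (0.045, 0.94) did not. Of the 2 lower rows, Gm13429 had 14 and 24 reads in the controls and 3 and 4 in the Ctcf-null libraries, and Gm42849 had 10 and 7 against 0 and 1.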
